A study of Mus musculus with 20 samples.

Results

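Fatty acid elongases and desaturases set the chain length and the number of double bonds of liver lipids, and the 10 genes described here are *Elovl1*, *Elovl2*, *Elovl3*, *Elovl5*, *Elovl6*, *Elovl7*, *Scd1*, *Scd2*, *Fads1* and *Fads2*. They were taken by name from the annotation of the array, which gave 27 probe sets of their own out of 45101, and they are 10 of the 18194 genes that could be named. 6 of them are elongases and 4 are desaturases. RNA came from untreated livers of 10 *IMP2-2* (p62) transgenic (tg) and 10 wildtype (wt) mice. All mice were 5 weeks old and of mixed C57Bl6J/DBA2 background, and by the labels each liver was read on 1 Affymetrix Mouse Genome array. IMP2-2 is a splice variant of an RNA-binding protein, and livers of these tg mice are known for steatosis. The sources used here do not give the promoter that drives the transgene, and *Igf2bp2*, the gene of IMP2, has no probe set of its own and was not analysed.

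Fatty acid synthase releases palmitate, and most of the fatty acids of the liver are made from palmitate or from dietary fatty acids by further elongation and desaturation at the endoplasmic reticulum. An elongase (ELOVL) adds carbon units to an acyl-CoA by the first and rate-limiting reaction of a cycle that a reductase, a dehydratase and a second reductase complete. Stearoyl-CoA desaturases (SCD) introduce the first double bond into saturated acyl-CoA, whereas the fatty acid desaturases encoded by *Fads1* and *Fads2* act on polyunsaturated fatty acids together with ELOVL5 and ELOVL2. In liver many of these genes are targets of the sterol-regulated factor SREBP-1c, and the enzymes receive electrons through cytochrome b5.

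Promoter sequences from RefSeq (build GRCm38.p6) were matched by symbol for 6 of the 10 genes, with 8 windows in all, each running from 250 bases before to 50 bases after a transcription start. *Scd1*, *Scd2*, *Fads1* and *Elovl3* had no entry. 3 windows are shown because *Elovl6* and *Elovl1* varied together with *Scd2* across tg livers, as given further on, and because *Elovl5* is the other broadly expressed elongase of the liver. All lie on the plus strand, at chr3:129532136-129532435 for *Elovl6*, chr4:118427843-118428142 for *Elovl1* and chr9:77917115-77917414 for *Elovl5*, and run 5′ to 3′. Capitals mark the NF-Y box CCAAT or its reverse complement.
Elovl6: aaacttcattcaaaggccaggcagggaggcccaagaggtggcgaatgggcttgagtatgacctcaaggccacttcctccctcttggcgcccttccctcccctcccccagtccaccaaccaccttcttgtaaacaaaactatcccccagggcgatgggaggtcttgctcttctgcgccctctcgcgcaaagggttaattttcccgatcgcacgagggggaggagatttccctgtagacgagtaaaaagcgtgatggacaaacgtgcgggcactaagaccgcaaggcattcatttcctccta
Elovl1: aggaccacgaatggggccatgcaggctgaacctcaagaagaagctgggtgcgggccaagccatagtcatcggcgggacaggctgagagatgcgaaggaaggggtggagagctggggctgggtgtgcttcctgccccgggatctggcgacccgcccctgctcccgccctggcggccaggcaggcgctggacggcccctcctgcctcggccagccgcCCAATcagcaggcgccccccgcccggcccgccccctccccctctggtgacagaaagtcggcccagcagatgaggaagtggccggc
Elovl5: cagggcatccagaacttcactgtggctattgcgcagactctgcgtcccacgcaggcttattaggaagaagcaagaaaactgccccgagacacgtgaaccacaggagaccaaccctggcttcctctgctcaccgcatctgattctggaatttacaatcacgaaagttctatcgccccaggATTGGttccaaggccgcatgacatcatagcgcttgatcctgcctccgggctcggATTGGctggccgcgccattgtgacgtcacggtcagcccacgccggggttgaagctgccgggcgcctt
Both strands were searched. The NF-Y box occurred 2 times in the *Elovl5* window, 1 time in the *Elovl1* window and 0 times in the *Elovl6* window, and 37.4% of all 32851 windows of this length in the table held it. The core of the sterol response element, TCACNCCAC, was in 0 of the 8 windows and in 1.24% of all windows. The E-box CACGTG was found in the *Elovl5* window alone among the 8 (7.15% of all windows), and the GC box GGGCGG occurred 5 times in the *Elovl1* window shown (35.7% of all windows). These matches describe letters in a short window and were not related to binding.

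Several arrays stood apart and bear on the results. The wt arrays wt_1407_2 and wt_1420_6 differed by an SD of only 0.168 log2 units over all probe sets, and wt_1407_5 and wt_1420_7 by 0.172, whereas other wt pairs gave 0.228 to 0.401. Wt means and SDs therefore count each pair once and rest on 8 profiles. The limma fit kept all 20 arrays, and its p values measure the spread between arrays. The array labelled wt_1386_4 was closer to tg_1386_9 (0.155) than to any wt array and was kept under its label. Whether any of these 3 pairs holds repeated or swapped samples was not tested. If so, there were fewer than 10 separate livers in a group, or 1 label does not give the genotype of its liver. tg_1420_4, tg_1423_2-8_1 and tg_1423_2-8_4 lay far from the other tg arrays, and the 4 arrays whose names start with tg_1423_2-8 or wt_1423_2-8 had shifted clock genes, which are described with *Elovl3*. They are called the clock-shifted arrays in what follows. On each array the mean log2 signal of the liver markers lay between 12.90 and 13.25, and Y-linked genes between 7.04 and 7.55. In whole tissue, fewer cells of a type and less RNA per cell cannot be told apart.

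No member was called higher or lower in tg livers in limma at an adjusted p under 0.05: 0 of 10 in either direction, where 2.98% of all genes were called higher and 0.967% lower. At an unadjusted p under 0.05, *Scd2*, *Elovl1* and *Elovl7* were higher and *Fads1* was lower, which makes 3 and 1 of 10 against 13% and 12.2% of all genes. The median log2 fold change of the 10 genes was -0.03, beside -0.02 for all genes. The label number, which the sample names share between genotypes, was taken to pair the arrays. With this number as a term *Scd2* passed (1 of 10 higher, 0 lower), where 5.39% of all genes were higher and 1.88% lower. That fit counted the near-identical wt arrays as separate samples, and the arrays of each such pair carry different label numbers. The plot of all arrays shows each member in both genotypes.

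**Figure D1:**
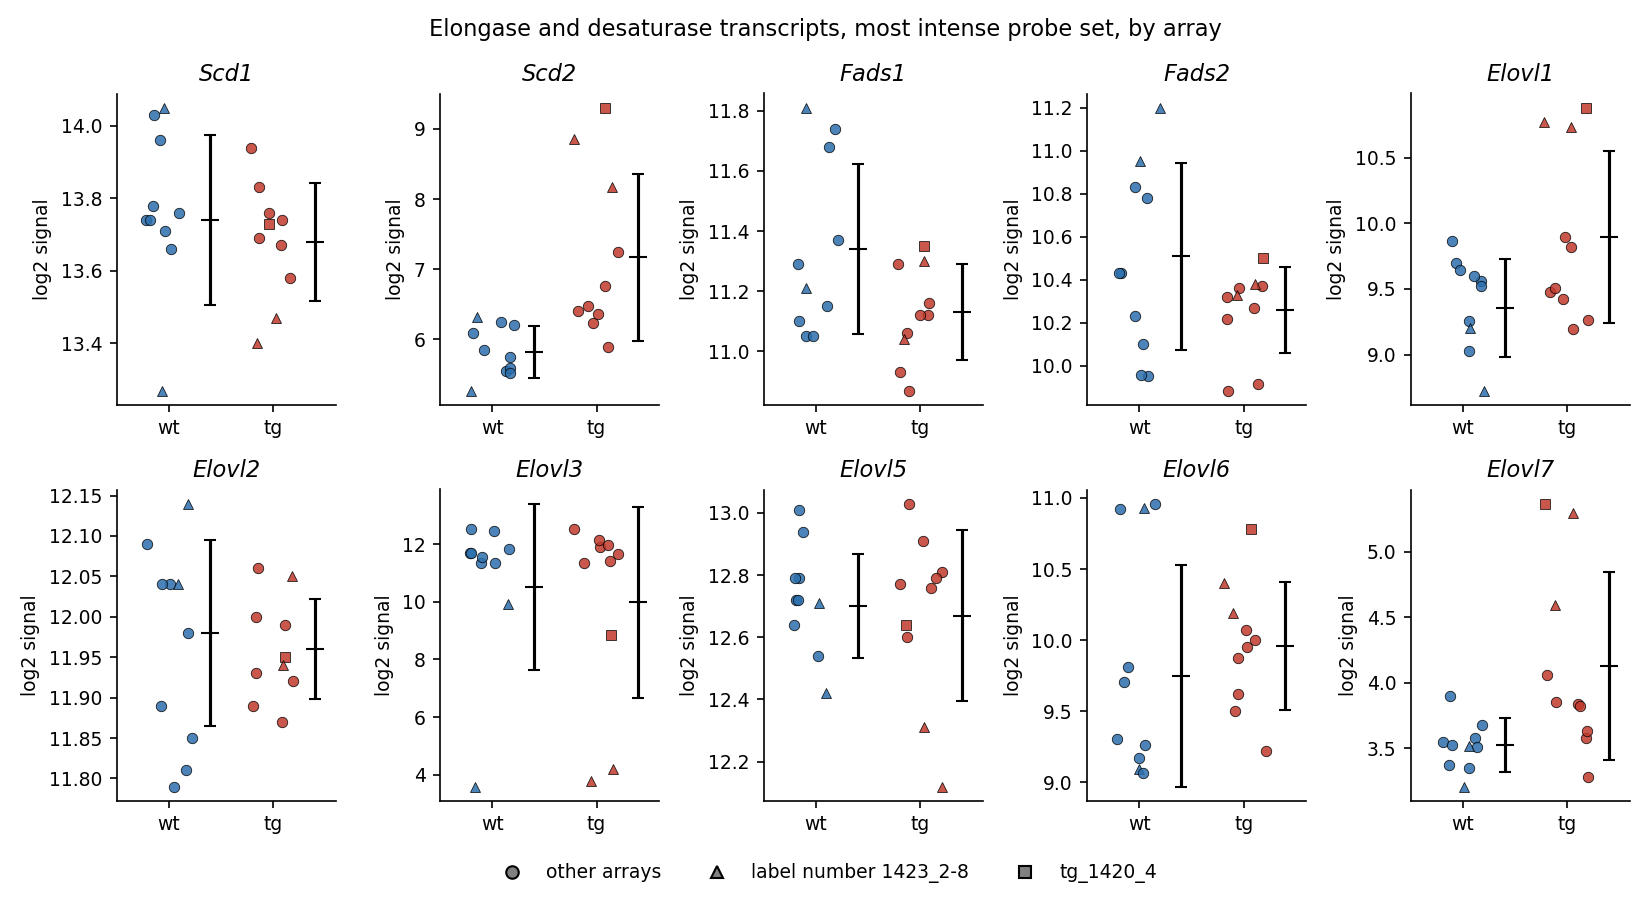
Log2 signal (RMA) of the most intense probe set of each of the 10 genes in wt and tg livers, 1 point per array, each panel with its own axis. Triangles mark the 4 clock-shifted arrays (label number tg_1423_2-8 and wt_1423_2-8), the square marks tg_1420_4, and bars give mean ± SD (tg n = 10, wt n = 8 profiles). The 3 highest *Scd2* values, 8.17 to 9.30, belong to tg_1420_4, tg_1423_2-8_1 and tg_1423_2-8_4, which also had the highest *Elovl1* values.

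*Scd2* had the largest fold change among the desaturases. It encodes the stearoyl-CoA desaturase isoform of brain and of the developing liver and skin. Its most intense probe set ran from 5.90 over a median of 6.62 to 9.30 in tg livers, and from 5.27 over 5.72 to 6.32 in wt profiles. The lowest tg array lay among the wt values, but 8 of 10 tg arrays lay above all wt arrays and all 10 above the wt median. The log2 fold change was 1.33 (SE 0.360, 2.52-fold, 95% confidence interval 0.585 to 2.08), with a limma adjusted p of 0.0501, which became 0.0399 once the label number was a term. Both fits kept the near-identical wt arrays as separate samples, and no fit with the label number averaged them. An exact two-sided permutation test over all 43758 splits of the 18 profiles gave p = 0.00363 for this probe set, not adjusted for the number of probe sets. The same test gave p = 0.0741 and 0.216 for the other *Scd2* probe sets. Within the 6 label numbers *Scd2* was higher in tg livers in 6 of 6, from 0.03 for tg_1386_9 against wt_1386_4 and 0.15 for tg_14231_6 against wt_14231_2 to 2.72 within the clock-shifted arrays. The 0.03 comes from the near-identical pair, and without these 2 arrays the log2 fold change was 1.48 (limma adjusted p = 0.0367). The arrays of each near-identical wt pair carry different label numbers. Some of the 6 differences therefore rest on nearly the same wt profiles, and they are not 6 separate comparisons. The same limit holds for every count over label numbers given below.

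The size of the *Scd2* difference rested on a few livers. Leaving out tg_1420_4, tg_1423_2-8_1 and tg_1423_2-8_4 gave 0.65 (limma adjusted p = 0.128), without the 4 clock-shifted arrays it was 0.99 (adjusted p = 0.236), and with the near-identical wt arrays averaged it was 1.35 (adjusted p = 0.103). Leaving out tg_1371_2, tg_1386_9, tg_1407_9, tg_1420_14 or tg_14231_6 brought the adjusted p under 0.05, and the whole range without 1 array was 0.0232 to 0.0947. The other 2 probe sets were weaker. The brighter of them had means of 5.13 ± 0.60 in tg and 4.71 ± 0.08 in wt livers and a fold change of 0.40 on the log2 scale (adjusted p = 0.204), and it was higher in 3 of 6 label numbers. The dimmer had 0.20 (adjusted p = 0.334) at a mean signal of 3.19, under 4.53, the median of all probe set means, so its size is not exact.

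Marker lists of other cell types and of cell programs were read beside *Scd2*. Of all genes, 2.98% were called higher and 0.967% lower, and 5.39% and 1.88% with the label number. Of 10 macrophage markers 7 were called higher, and 9 with the label number, with an array mean of 7.78 to 8.57 in tg and 7.44 to 8.09 in wt livers. All 7 measured interferon genes were called higher in both fits, with means of 7.77 to 9.79 in tg and 6.46 to 7.78 in wt. Of 8 proliferation markers 1 was called, and 6 with the label number, with means of 6.13 to 7.90 in tg and 5.84 to 6.42 in wt. Of 11 fetal liver markers, a list without *Scd2*, 4 were called higher, and 5 with the label number, with means of 5.20 to 6.66 in tg and 4.67 to 5.43 in wt. Of 9 lymphocyte markers 0 were called, and 2, *Cd8a* and *Ms4a1*, were lower with the label number. Of 9 stellate cell markers 0 were called, of 6 cholangiocyte markers 1, *Pkhd1*, was called higher, and of 8 endothelial markers 1, *Lyve1*. Of 4 adipocyte, 4 erythroid and 6 pancreas markers 0 were called in either fit. tg_1420_4, the array with the highest *Scd2*, also had the highest fetal (6.66), interferon (9.79), stellate (8.32) and cholangiocyte (4.93) means of all 20 arrays, and a macrophage mean of 8.45 and a proliferation mean of 7.48. On tg_1423_2-8_1 and tg_1423_2-8_4 the fetal means (6.17 and 6.05) were the next highest, the macrophage means were 8.53 and 8.21, the interferon means 9.42 and 9.30, and the proliferation means 6.81 and 6.91. The highest macrophage mean was on tg_1420_14 and the highest proliferation mean on tg_1371_2, where *Scd2* was 6.48 and 6.41. The part of these cells or programs in the *Scd2* values was not tested.

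*Scd1*, which encodes the main desaturase of adult liver, had close means in both genotypes. Its most intense probe set ran from 13.40 over a median of 13.71 to 13.94 in tg and from 13.27 over 13.75 to 14.05 in wt livers, and the groups overlapped fully. The log2 fold change was -0.09 (SE 0.084, 95% confidence interval -0.26 to 0.09, limma adjusted p = 0.583). The second probe set gave 0.09 (SE 0.255, adjusted p = 0.876) with a wider spread, 9.48 to 10.56 in tg and 8.27 to 10.96 in wt. *Scd1* was higher in tg livers in 2 of 6 label numbers.

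*Scd2* was also set against *Scd1* within the array, because both enzymes catalyse the same reaction. The levels of different probe sets cannot be compared, but the difference *Scd2* minus *Scd1* can be compared between genotypes. The *Scd1* probe set used is among the brightest on the array, with only 26 probe sets of higher mean, and it varied by 0.771 log2 units over the 20 arrays where the second *Scd1* probe set varied by 2.70. Whether its signal is close to saturation was not tested. It was -6.51 ± 1.28 in tg (n = 10) and -7.93 ± 0.22 in wt profiles, and 9 of 10 tg arrays lay above all wt arrays. The genotypes differed by 1.42 log2 units (exact permutation p = 0.00341), and by 0.67 (exact p = 0.00202) without tg_1420_4, tg_1423_2-8_1 and tg_1423_2-8_4. *Scd2* alone differed by 1.35 over the same profiles. The contrast thus largely repeats the *Scd2* values and is no separate evidence for them. Relabeling within the label numbers, with all 20 arrays, gave 1.42 (exact permutation p = 6.94e-04 over 5760 relabelings). The near-identical wt arrays carry different label numbers within each pair, and leaving out 1 array of each pair, in the 4 possible ways, gave 1.38 to 1.45 (exact permutation p = 0.00208 to 0.00694). Against the second probe set of *Scd1* the shift was 1.12 (exact permutation p = 0.0190), with 4 of 10 tg arrays above all wt arrays. With the mean of all probe sets of each gene the shift was 0.57 (exact permutation p = 0.0699).

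**Figure D2:**
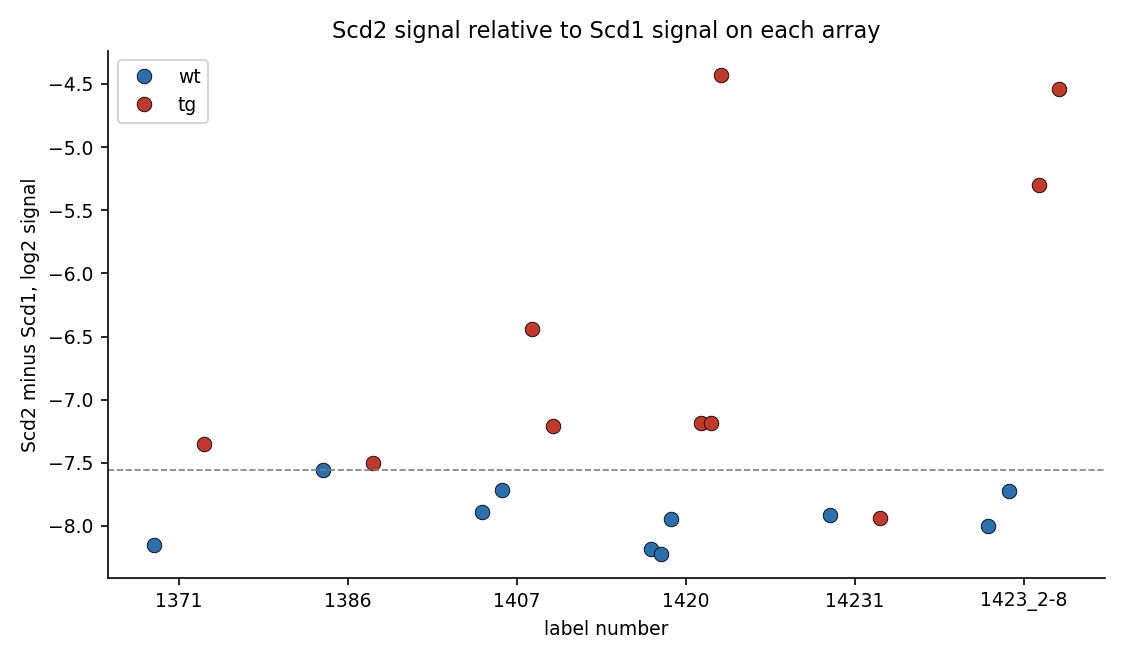
Difference of the log2 signals of *Scd2* and *Scd1* (most intense probe sets) on each array, ordered by the label number that wt (blue) and tg (red) samples share, with the highest wt value as a dashed line. 9 of 10 tg arrays lie above that line, by a small margin for tg_1386_9 and by the most for tg_1420_4 (-4.42), and only tg_14231_6 (-7.94) lies under it.

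*Fads1* and *Fads2*, which introduce double bonds on the route from dietary essential fatty acids to arachidonic and docosahexaenoic acid, had lower means in tg livers at all 5 probe sets, and none passed. *Fads1* ran from 10.87 over a median of 11.12 to 11.35 in tg and from 11.05 over 11.25 to 11.81 in wt livers. 3 of 10 tg arrays lay under all wt arrays. The log2 fold change was -0.22 (SE 0.100, limma adjusted p = 0.218), and -0.32 (SE 0.137, adjusted p = 0.188) at its second probe set. *Fads1* was lower in 5 of 6 label numbers, from -0.40 to 0.06.

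The most intense *Fads2* probe set ran from 9.89 over 10.32 to 10.50 in tg and from 9.96 over 10.43 to 11.20 in wt profiles, with a fold change of -0.23 on the log2 scale (SE 0.141, limma adjusted p = 0.365). The second probe set had means of 9.40 ± 0.16 in tg and 9.73 ± 0.36 in wt profiles, and 4 tg arrays lay under all wt arrays. Its log2 fold change was -0.37 (SE 0.124, limma adjusted p = 0.101), and the exact permutation test on this probe set alone gave p = 0.00898. The dimmest *Fads2* probe set gave -0.26 (adjusted p = 0.387). The upper end of the wt range came from few arrays: wt_1423_2-8_9, wt_1423_2-8_3, wt_1407_5 and wt_1420_7 had *Fads2* values of 11.20, 10.95, 10.83 and 10.78, while all other arrays of both genotypes lay at or under 10.50.

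**Figure D3:**
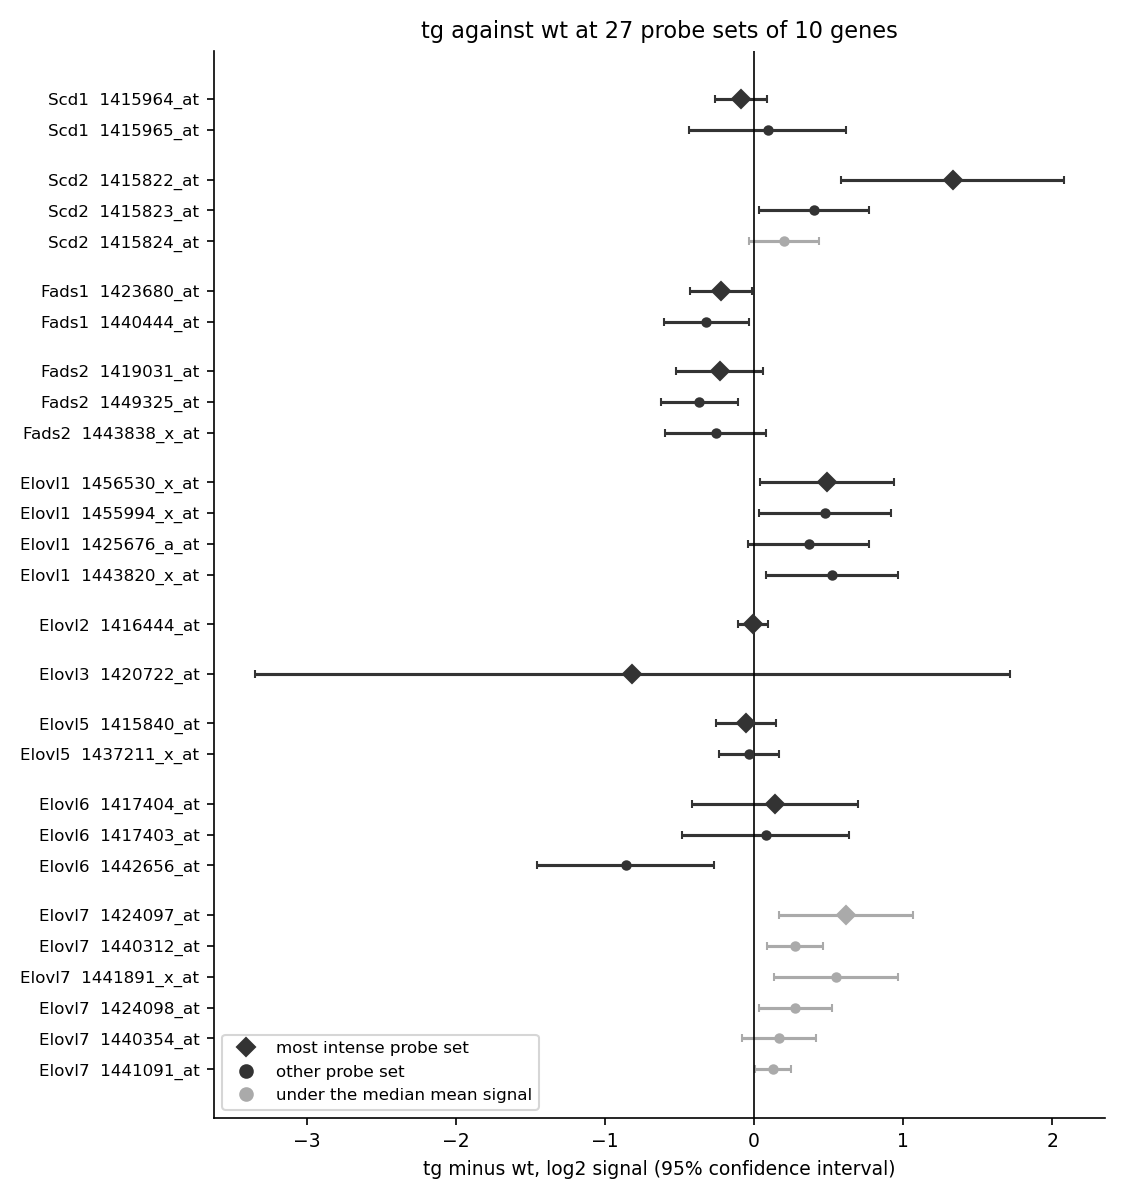
Log2 fold change of tg over wt livers with its 95% confidence interval (limma, 20 arrays) for the 27 probe sets of the 10 genes. Diamonds mark the most intense probe set of a gene, and grey marks probe sets whose mean lies under 4.53, where sizes are not exact. All probe sets of *Elovl1*, *Elovl7* and *Scd2* lie to the right of 0 and all of *Fads1* and *Fads2* to the left, while those of *Elovl6* and *Scd1* lie on both sides.

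Among the elongases of saturated and monounsaturated chains, *Elovl1*, *Elovl3*, *Elovl6* and *Elovl7*, only *Elovl1* and *Elovl7* had higher means in tg livers at all their probe sets. *Elovl1*, which makes very long acyl chains for sphingolipids, ran from 9.19 over a median of 9.66 to 10.88 in tg and from 8.73 over 9.41 to 9.86 in wt livers. 4 of 10 tg arrays lay above all wt arrays, and tg_1420_4, tg_1423_2-8_4 and tg_1423_2-8_1 held the 3 highest values (10.88, 10.77 and 10.73). The log2 fold change was 0.49 (SE 0.216, limma adjusted p = 0.205). The other 3 probe sets gave 0.37 to 0.52, all positive. Without these 3 tg arrays the value was 0.10 (adjusted p = 0.840). Within label numbers it was 1.79 within the clock-shifted arrays and -0.08 to 0.26 for the other 5.

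*Elovl7*, an elongase of saturated long chains, had 6 probe sets, all higher in tg livers and all with a mean under 4.53. The most intense ran from 3.28 over a median of 3.85 to 5.37 in tg and from 3.21 over 3.52 to 3.90 in wt livers. The log2 fold change was 0.61 (SE 0.216, limma adjusted p = 0.115) and that of the others 0.13 to 0.55. The same 3 tg arrays were again the highest, at 5.37, 5.30 and 4.59, and without them the value was 0.21 (adjusted p = 0.456). Signals of this size are close to background, so these fold changes are not exact.

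*Elovl6*, which extends palmitate to stearate and thereby supplies the substrate of the SCD enzymes, gave opposite signs at its probe sets. The most intense ran from 9.22 over a median of 9.97 to 10.78 in tg and from 9.07 over 9.49 to 10.94 in wt profiles (log2 fold change 0.14, SE 0.268, limma adjusted p = 0.810), and the second gave 0.08 (adjusted p = 0.901). In contrast, the dimmest, 5.09 ± 0.62 in tg and 5.79 ± 0.77 in wt profiles, differed by -0.86 on the log2 scale (SE 0.286, limma adjusted p = 0.0976, and 0.0589 with the label number). Which transcripts this probe set reads was not examined. The wt values of the most intense probe set fell in 2 ranges, 10.92 to 10.96 on wt_1407_5, wt_1420_7 and wt_1423_2-8_9 and 9.07 to 9.81 on the other 7. On these 3 arrays *Fads1* (11.68 to 11.81) and *Scd1* (13.96 to 14.05) were also the highest of all 20, and the mean of 10 genes of palmitate supply was 10.81, 10.83 and 10.52 beside 9.46 to 10.31 elsewhere. wt_1407_5 and wt_1420_7 are one of the near-identical pairs.

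*Elovl3* showed the widest spread of the family. It encodes an elongase of very long saturated and monounsaturated chains, and in mouse liver its transcript is known to be higher in males and to cycle over the day. 15 arrays of both genotypes lay between 11.33 and 12.53. wt_1423_2-8_3 was at 9.92 and tg_1420_4 at 8.83, whereas tg_1423_2-8_1 (3.78), tg_1423_2-8_4 (4.19) and wt_1423_2-8_9 (3.59) were under 4.53. The fold change of -0.82 on the log2 scale (SE 1.22, 95% confidence interval -3.35 to 1.72, limma adjusted p = 0.744) was therefore set by a few arrays. It was 1.06 (adjusted p = 0.71) without the 3 tg arrays and 0.05 without tg_1420_4 and the clock-shifted arrays. In 4 of 6 label numbers the genotypes differed by -0.03 to 0.41.

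The 4 clock-shifted arrays differed from the rest as follows. The mean of 9 clock genes that peak toward night was 7.49 to 8.28 on these 4 and 5.79 to 6.17 on the other 16, and that of 4 genes with the opposite phase was 5.25 to 5.97 against 7.39 to 7.72. The mean of 7 male-biased liver genes was 6.93, 7.66 and 7.55 on the 3 arrays with the lowest *Elovl3* and 9.70 on tg_1420_4. It was 11.64 on wt_1423_2-8_3, whose clock genes were shifted as well. On the other 15 arrays it ran from 10.26 to 11.98. As the clock genes and the male-biased genes moved together on 3 of the 4 arrays, their parts in the *Elovl3* values cannot be told apart there. On tg_1423_2-8_1, tg_1423_2-8_4 and wt_1423_2-8_9 the mean of 7 female-biased liver genes was 7.17, 6.51 and 8.55, against 4.75 to 5.72 on all other arrays. On the same 3 arrays *Xist* (3.95, 4.215 and 3.93) and the Y-linked *Eif2s3y* (9.09, 8.95 and 9.14) lay within the range of the other arrays. What lowered the male-biased genes on these arrays was not tested.

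**Figure D4:**
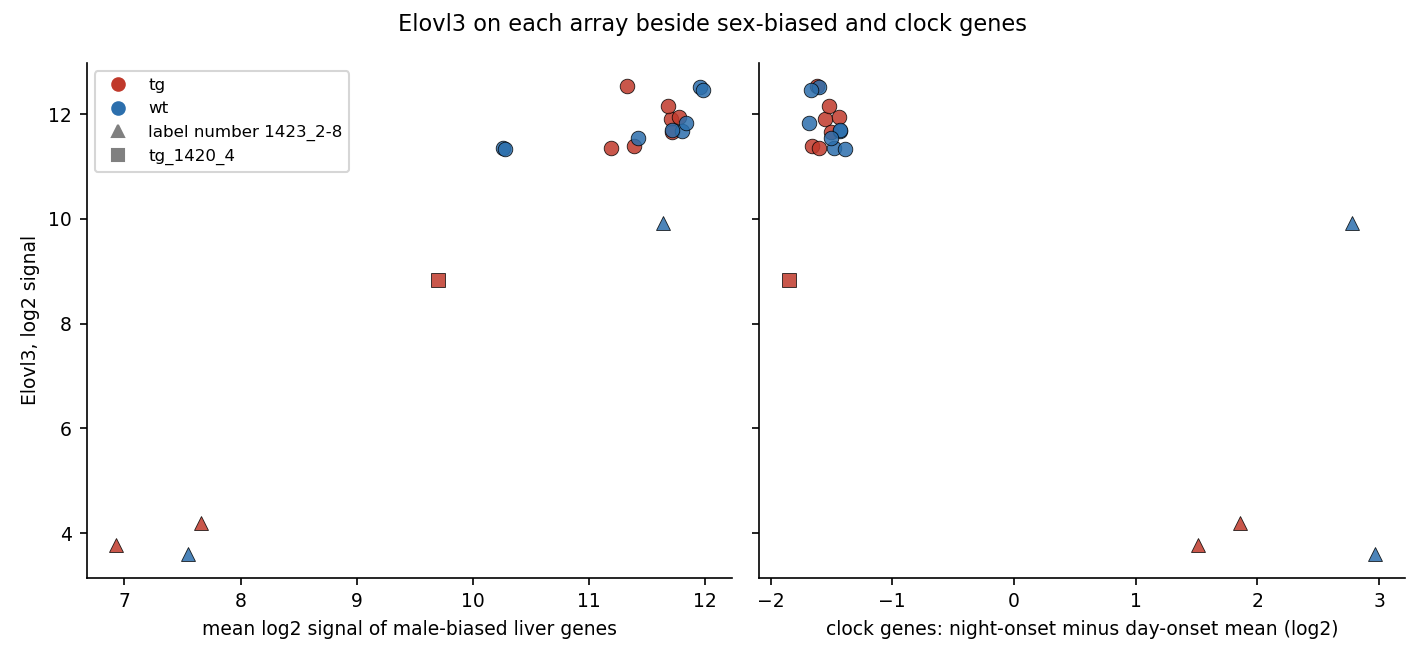
Log2 signal of *Elovl3* on each array (red tg, blue wt) against the mean log2 signal of 7 male-biased liver genes (left) and the difference between clock genes high at night onset and at day onset (right). Triangles are the 4 clock-shifted arrays and the square is tg_1420_4. The 3 arrays with *Elovl3* under 4.53 have the 3 lowest male-biased means and shifted clock genes, and wt_1423_2-8_3, with shifted clock genes and a male-biased mean of 11.64, is at 9.92.

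The elongases of polyunsaturated chains, *Elovl5* and *Elovl2*, had close means in both genotypes. *Elovl5* ran from 12.12 over a median of 12.76 to 13.03 in tg and from 12.42 over 12.71 to 12.97 in wt profiles, with a fold change of -0.05 on the log2 scale (SE 0.097, limma adjusted p = 0.80). The 2 lowest tg values, 12.12 and 12.31, were those of tg_1423_2-8_4 and tg_1423_2-8_1. *Elovl2* had the narrowest spread of the 10 genes, 11.87 to 12.06 in tg and 11.80 to 12.14 in wt profiles, and a fold change of -0.01 on the log2 scale (SE 0.048, 95% confidence interval -0.11 to 0.09, adjusted p = 0.946). The difference *Elovl6* minus *Elovl5*, which sets the elongase of the saturated route against one of the polyunsaturated route, was -2.72 ± 0.62 in tg (n = 10) and -2.95 ± 0.71 in wt profiles, and the genotypes differed by 0.23 (exact permutation p = 0.460). Its sign turned without tg_1420_4, tg_1423_2-8_1 and tg_1423_2-8_4 (-0.11).

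**Figure D5:**
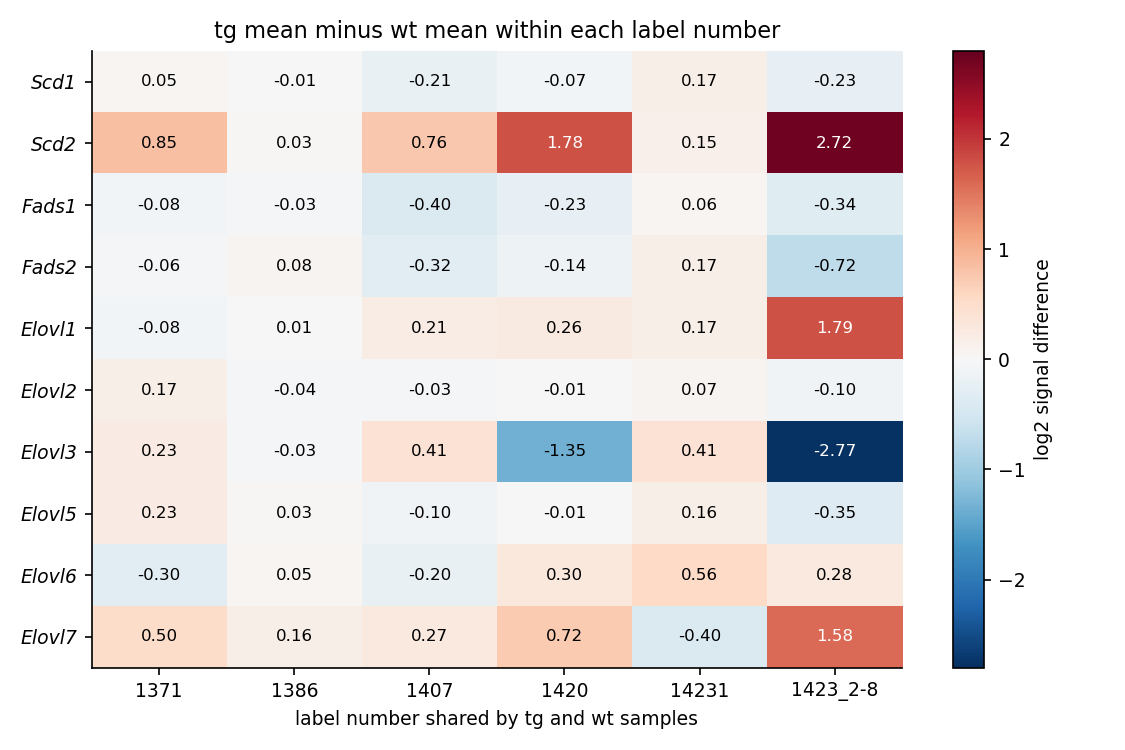
Tg mean minus wt mean in log2 signal within each of the 6 label numbers (columns) for the most intense probe set of each gene (rows), red where tg is higher and blue where wt is higher. *Scd2* is positive in all 6 columns, which are not all separate comparisons because near-identical wt arrays stand in different columns. The largest differences of *Elovl1*, *Elovl7*, *Scd2*, *Fads2* and *Elovl3* all stand in the last column, that of the clock-shifted arrays.

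Members varied together within the tg group. Over the 10 tg arrays 10 of 45 pairs passed a permutation test of Pearson's r after Benjamini-Hochberg adjustment over the 45 pairs, 8 with a positive and 2 with a negative sign, and 3 passed with Spearman's rho. *Scd2* and *Elovl1* had r = 0.957 (permutation p = 1.60e-04, adjusted 0.00461) and rho = 0.891 (permutation p = 9.70e-04, adjusted 0.0218), and r was 0.922 without tg_1423_2-8_4 and tg_1420_4. For *Scd2* and *Elovl6*, r was 0.871 and rho 0.903 (permutation p = 4.10e-04 and 7.80e-04, adjusted 0.00461 and 0.0218), with r = 0.674 without the same arrays. For *Fads1* and *Fads2*, r was 0.880 and rho 0.867 (permutation p = 2.20e-04 and 0.00217, adjusted 0.00461 and 0.0325), with r = 0.772 without tg_1420_4 and tg_1407_9. tg_1420_4, tg_1423_2-8_1 and tg_1423_2-8_4 form a cluster of their own for *Scd2*, *Elovl1* and *Elovl7*, and over the other 7 tg arrays, where the smaller n needs a larger r to pass, 0 of 45 pairs passed. There r was 0.721 for *Scd2* and *Elovl1* (exact permutation p = 0.0615, adjusted 0.603) and 0.569 for *Scd2* and *Elovl6* (exact p = 0.190, adjusted 0.603). For *Fads1* and *Fads2* it was 0.912 (exact p = 0.00496, adjusted 0.223), no lower than over all 10. Over the 8 wt profiles 2 of 45 pairs passed with r and 0 with rho. These were *Fads1* with *Elovl6* (r = 0.969, exact permutation p = 0.00181, adjusted 0.0407) and *Fads2* with *Elovl3* (r = -0.777, exact permutation p = 7.94e-04, adjusted 0.0357). For *Fads1* and *Elovl6*, r was 0.794 without wt_1423_2-8_9 and the averaged profile of wt_1407_5 and wt_1420_7. For *Fads2* and *Elovl3* it was -0.707 without the clock-shifted arrays wt_1423_2-8_3 and wt_1423_2-8_9.

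The genes most like each member were sought among 11775 genes above the median signal, with the genotype means removed, over the 18 profiles. For *Scd2* they were *Mob3a* (r = 0.950) and *Ttll12* (0.941), for *Elovl1* *Tmx2* (0.958) and *Msrb2* (0.943), and for *Elovl6* *Gas6* (0.918) and *Ndufa2* (0.917). *Scd1* was nearest to *Rflna* (0.901) and *Brd7* (0.856), *Fads2* to *Wasl* (0.902) and *Grk6* (0.864), and *Elovl5* to *Ppp1ca* (0.902) and *Cst3* (0.899). *Fads1* was nearest to *Pcx* (0.933), the gene of pyruvate carboxylase, followed by *Ergic3* (0.864). *Pcx* remained at 0.903 over the 13 profiles without tg_1420_4 and the clock-shifted arrays. For *Elovl3* they were *Atp8b4* (0.973) and *C8b* (0.963), and without those arrays r fell to 0.376 and 0.560. Over the same 13 profiles r was 0.864 and 0.736 for the neighbours of *Scd2* and 0.809 and 0.757 for those of *Elovl1*. It was 0.904 and 0.86 for *Elovl6*, 0.806 and 0.749 for *Scd1*, 0.793 and 0.844 for *Fads2*, and 0.76 and 0.61 for *Elovl5*. The best values for *Elovl2* over the 18 profiles were 0.763, for *Ccdc42os* and *Lypla1*. These correlations describe profiles from shared arrays and carry no test.

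Genes that work beside the members were read from 9 lists with 85 measured genes. limma called 2 higher and 1 lower, 2.35% and 1.18% beside 2.98% and 0.967% of all genes, which is close to the background. At an unadjusted p under 0.05 there were 8 higher and 17 lower, 9.41% and 20% beside 13% and 12.2% of all genes. With the label number 4 were higher and 2 lower, 4.71% and 2.35% beside 5.39% and 1.88%. The median log2 fold change of the 85 genes was -0.07, beside -0.02 for all genes. Of 7 genes of the elongation cycle, such as the ketoacyl reductase *Hsd17b12*, and of 5 other desaturases, 0 were called. *Tecr*, which encodes the last enzyme of the cycle, had a fold change of -0.31 on the log2 scale (SE 0.119, adjusted p = 0.151), *Hacd2*, one of the dehydratases, 0.15 (adjusted p = 0.341), and *Fads3* and *Fads6* -0.21 (adjusted p = 0.166) and -0.08 (adjusted p = 0.532). Of 6 genes of electron supply 0 were called. *Cyb5r3*, the reductase that passes electrons to cytochrome b5, had -0.20 (SE 0.073, adjusted p = 0.122), and *Cyb5b*, an outer mitochondrial membrane form of that cytochrome, -0.17 (adjusted p = 0.297).

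Of 10 genes of palmitate supply 0 were called. *Me1*, the malic enzyme that yields NADPH, had a fold change of -0.65 on the log2 scale (SE 0.241, limma adjusted p = 0.133) and *Fasn*, the fatty acid synthase, -0.47 (SE 0.273, adjusted p = 0.342). *Acaca*, the acetyl-CoA carboxylase that makes malonyl-CoA, had the smallest p of the list and the opposite sign, 0.35 (SE 0.125, adjusted p = 0.121), and was named after its values were seen. *Fasn* ran from 9.85 to 12.48 in wt and from 10.26 to 11.52 in tg livers. Of 16 genes of acyl-CoA synthesis and carriage 1 was called. *Acsl4*, an acyl-CoA synthetase that prefers arachidonic acid, rose by 0.32 (SE 0.076, adjusted p = 0.0326) from 9.30 ± 0.14 in wt to 9.60 ± 0.20 in tg livers. The call was lost without 1 of tg_1407_3, tg_1420_4, tg_1423_2-8_1, tg_1423_2-8_4, wt_1371_4, wt_1407_5, wt_1420_7 or wt_14231_2, and with the near-identical wt arrays averaged (adjusted p = 0.0819).

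Of 15 regulators of lipogenesis 1 was called. *Mbtps2*, the protease that releases SREBP from the membrane, rose by 0.50 (SE 0.135, limma adjusted p = 0.0489) from 7.02 ± 0.16 to 7.53 ± 0.43. Among the 20 fits that each left out 1 array it was kept without tg_1371_2, tg_1386_9, tg_1420_12, tg_1420_14 or tg_14231_6 and lost in the other 15, and it was lost with the near-identical wt arrays averaged (adjusted p = 0.103). With the label number in the fit, *Insig1*, which retains SREBP in the endoplasmic reticulum (0.46, adjusted p = 0.119, and 0.0455 with the label number), and *Mlxipl*, which encodes the glucose-responsive factor ChREBP (-0.51, adjusted p = 0.0737, and 0.0396 with the label number), also passed. Both were named after their values were seen.

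Of 10 genes of peroxisomal chain shortening 0 were called. *Hsd17b4*, the bifunctional enzyme of that pathway, had a fold change of -0.30 on the log2 scale (SE 0.103, limma adjusted p = 0.104), with 10.89 ± 0.04 in wt and 10.58 ± 0.34 in tg livers, and *Abcd2*, a peroxisomal acyl-CoA transporter, 0.53 (SE 0.549, adjusted p = 0.622). Of 5 ceramide synthases 0 were called. *Cers6*, which uses mainly palmitoyl-CoA, had 1.14 (SE 0.346, adjusted p = 0.0755, and 0.0212 with the label number), from 6.21 ± 0.74 to 7.26 ± 0.94. *Cers4* gave -0.14 (adjusted p = 0.277). Of 11 genes of glycerolipid acylation 1 was called. *Agpat3*, which acylates lysophosphatidic acid, fell by 0.32 (SE 0.086, adjusted p = 0.0471) from 9.10 ± 0.18 to 8.79 ± 0.21. Among the 20 fits that each left out 1 array it was kept without tg_1371_2, tg_1386_9, tg_14231_6, wt_1386_4 or wt_1423_2-8_3 and lost in the other 15. It was also lost with the near-identical wt arrays averaged (adjusted p = 0.0982) and with arrays centred on their medians (adjusted p = 0.0643).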

How the data were processed

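RNA from 20 livers, 10 of *IMP2-2* tg and 10 of wt mice, was hybridized to Affymetrix arrays. The deposited values are on the log2 scale and cover 45101 probe sets, which the authors normalized by RMA per the submitters' processing notes. The sources used here do not give the program version. Values were used as deposited, and no raw scan was read. The number of arrays limits the precision of every value.

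The annotation of the array gave 1 symbol to 34958 probe sets, several to 932 and none to 9211. Probe sets with several symbols were not used for a gene. Each gene was represented by its most intense probe set, judged by the mean of the 20 arrays. The fit (R 4.3.3, limma 3.58.1) had genotype as its only term on all 20 arrays, with Benjamini-Hochberg adjustment over all probe sets and a threshold of 0.05. Exact permutation tests were two-sided (Python 3.11.15, numpy 2.4.6, scipy 1.17.1). They counted each near-identical wt pair once, except the relabeling within label numbers with all 20 arrays. The functions were tested on simulated data. Described genes beside the members were, in each list, every gene called and otherwise the 2 with the largest change among those with a mean at or above the median in either genotype, and the 2 genes nearest to each member by Pearson's r. *Elovl7* had no neighbours named because its signals lie under the median of 4.53. The members and all gene lists were chosen with earlier results of these data known.

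Sample names share 6 numbers between genotypes. After the genotype means were removed, arrays of the same number correlated across genotypes with 0.184 to 0.404, and 5 of 6 numbers were highest with their own. The near-identical arrays enter these values, among them tg_1386_9 and wt_1386_4, which alone make up 1386 (0.382). In limma the consensus correlation within a number was low, at 0.082. The number was still taken to pair arrays. Its fit is given where it changed a call among the members, the genes beside them and the marker lists of other cell types. Among the clock genes it changed the call of *Dbp* (adjusted p = 0.0208, lower). The sources used here do not say what it stands for.

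Alternatives were the label number as a fixed term or random block, near-identical arrays averaged, arrays left out singly and in groups, renewed normalization, a filter on dim probe sets, other empirical Bayes settings, array weights, covariates, other probe set rules and a Wilcoxon test. The fits without tg_1420_4 and the clock-shifted arrays (tg_1423_2-8 and wt_1423_2-8) together, and with male-biased genes as a covariate, the relabeling with 1 array of each near-identical pair left out and the second *Scd1* probe set were chosen after seeing the data.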

Additional observations from a re-analysis of the deposited data

Results flagged for a closer look

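*Elovl3* on wt_1423_2-8_9 (3.59) lay far from the other wt values, the next of which was 9.92 on wt_1423_2-8_3. The gap was 0.711 of the whole range of the 8 wt profiles, above Dixon's critical share for 8 values. Among 24 groups of values examined in this way 1 was singled out, and chance alone gives about 5% of such groups.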

How the results depend on the processing

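Calls near the threshold moved with the choice of arrays. For the 10 members, 0 were lower under any alternative, and 1, *Scd2*, was higher with the label number as a fixed term or as a random replicate block, without tg_1386_9 and wt_1386_4, with only probe sets above the median mean, with the clock score or the male-biased mean as a covariate, and in the Wilcoxon test. Each of these settings kept the near-identical wt arrays as separate samples. With those arrays averaged 0 members were higher, also with tg_1386_9 and wt_1386_4 left out. Without 1 array the number higher was 0 to 1. The replicate block with the label number changed no other member's call. Of the pathway genes, 2 were higher and 1 lower. The number higher became 4 with the label number as a fixed term, 1 after quantile normalization, with trend and robust settings, with array weights, with *Xist* as a covariate and in the Wilcoxon test, and 0 with near-identical arrays averaged, with these averaged and tg_1386_9 and wt_1386_4 left out, without tg_1420_4, tg_1423_2-8_1 and tg_1423_2-8_4, without the 4 clock-shifted arrays, and without these and tg_1420_4. Without 1 array it was 0 to 3. The number lower became 3 without tg_1386_9 and wt_1386_4 and with the clock score, 2 with either replicate block and above the median mean, and 0 with near-identical arrays averaged (also with tg_1386_9 and wt_1386_4 left out), in the 3 settings without the clock-shifted arrays or their tg members, with centred arrays, array weights, *Xist* or male-biased genes as a covariate and in the Wilcoxon test. Without 1 array it was 0 to 5.

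Some signs turned. Among these the main values furthest from 0 were -0.82 for *Elovl3*, 0.53 for *Abcd2* and 0.49 for *Elovl1*. Without the 3 tg arrays the log2 fold changes were 1.06 for *Elovl3*, 0.0836 for *Elovl5*, -0.0741 for *Elovl6* and -0.0543 for *Abcd2*, and *Elovl6* minus *Elovl5* was -0.11. Without the clock-shifted arrays *Elovl2* was 0.0145 and *Elovl5* 0.0224. Without them and tg_1420_4 *Elovl1* was -0.0089, *Elovl2* 0.0141, *Elovl3* 0.0493, *Elovl5* 0.0437 and *Elovl6* -0.0268. With the male-biased mean *Elovl3* was 0.14 and *Elovl6* -0.0049. Array weights gave 0.0096 for *Elovl2* and 0.0164 for *Elovl5*, and centred arrays 0.0158 for *Elovl2*. With the mean of all probe sets *Scd1* was 6.72e-04, *Elovl6* -0.22, *Scd2* minus *Scd1* 0.57 and *Elovl6* minus *Elovl5* -0.10. Without 1 array *Elovl2* ran from -0.0272 to 0.0107 and *Elovl5* from -0.0914 to 0.0095, while *Scd2* minus *Scd1* stayed between 1.19 and 1.58 (exact permutation p at most 0.0105). The number of tg pairs was 3 with Spearman's rho and 0 without the 3 tg arrays. That of wt pairs was 0 with rho, 0 without tg_1386_9 and wt_1386_4, and 7 with all 10 wt arrays as separate samples. The cause of these changes was not tested. Dim probe sets, among them all of *Elovl7*, limit what can be read from sizes.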
